A study of Rattus norvegicus with 3 samples.

Results

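The alpha-2u globulins and major urinary proteins (MUPs) of the rat were followed across the 3 major salivary glands with 14 array probes under 10 gene names, of 41012 probes in all. The members were selected by their written names: a probe belongs to the set where its description holds alpha-2u globulin or major urinary protein, or where its gene name is Obp3, Mup4, Mup5, LOC259245 or LOC259246. Read letter by letter, these words found 11 probes, and 3 more (LOC298116, LOC298111 and LOC366379) were included because their descriptions differ only in a hyphen or a space. The set was proposed with earlier results of these same arrays known, so its parotid excess is given as a description and supports nothing. The parotid, submandibular and sublingual glands of normal male Wistar rats, 10 weeks of age, each gave total RNA for 1 Agilent array, labelled with the dye Cy3. The series' design names 3 rats, but which of them each array represents, or whether RNA was pooled, is not stated in the sources used here. With 1 array per gland there are no replicates, no test and no p-value.

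Alpha-2u globulins are small secreted proteins of the lipocalin family, which fold into a barrel with a pocket for small hydrophobic molecules. Adult male rats make them in the liver under the control of androgens, growth hormone and other hormones, and excrete them in urine, where they carry pheromones; the mouse counterparts are the MUPs. Members of the family are also made in exocrine glands such as the salivary, lacrimal and preputial glands. The genes lie side by side as recently duplicated copies.

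The probes lay within 890476 bases of chromosome 5, all on the minus strand (coordinates of the array design, build rn4). From the lowest coordinate upward, the order of the names was Obp3, LOC259244, Mup4, LOC366379, Mup5, X14435, LOC259245 with 3 probes, LOC298116, LOC259246 with 2 probes, LOC298111 and a second Mup5 probe. The second Mup5 probe, designed on a clone named PGCL7, lay beyond the region named for the main cluster. The coordinates of 10 probes spanned 60 bases. Those of 3 spanned more (405 bases for LOC259244, 771 and 289 bases for 2 of the LOC259245 probes), and those of LOC298116 spanned 33. The array files give no exon or UTR for a probe, and the probe sequences were not used here.

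The RefSeq gene table of assembly GRCr8 named 6 genes for 7 of the probes: Obp3, Mup4, Mup5 (both probes), and, under newer symbols, Mup4l4 for LOC259244, Mup4l1 for LOC298116 and Mup4l3 for LOC298111. The second Mup5 probe was matched only by the gene name in the array file, the others by their RefSeq transcript. Their promoters are shown because they let a reader see how alike the copies are whose signals moved together. Each line gives 98 bases 5′ to 3′ on the minus strand (RefSeq, GRCr8), ending upstream of the annotated start, with the box TATAAA in capitals.
Obp3, chr5:79640691-79640788: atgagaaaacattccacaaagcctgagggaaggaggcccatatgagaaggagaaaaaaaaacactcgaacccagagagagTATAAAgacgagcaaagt
Mup4l4, chr5:79707842-79707939: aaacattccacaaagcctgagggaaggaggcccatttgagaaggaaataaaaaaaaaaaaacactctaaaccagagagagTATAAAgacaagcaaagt
Mup4, chr5:79759531-79759628: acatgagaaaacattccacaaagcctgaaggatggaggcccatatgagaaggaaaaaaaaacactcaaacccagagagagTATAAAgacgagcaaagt
Mup5, chr5:79999730-79999827: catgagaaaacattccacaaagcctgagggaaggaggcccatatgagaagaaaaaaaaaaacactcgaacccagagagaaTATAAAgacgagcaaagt
Mup4l1, chr5:80226544-80226641: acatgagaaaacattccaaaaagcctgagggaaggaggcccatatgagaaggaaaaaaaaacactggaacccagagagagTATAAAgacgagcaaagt
Mup4l3, chr5:80318388-80318485: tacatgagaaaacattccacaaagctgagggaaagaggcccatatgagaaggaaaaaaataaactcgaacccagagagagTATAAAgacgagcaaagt

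Over the whole promoter windows, from 250 bases before to 50 bases after the start, the 15 pairs of the 6 promoters were 89.8% to 97.5% identical (median 93.9%), with 266 to 299 bases aligned. Identity was taken over aligned bases only and leaves out gaps, which numbered up to 10 in a pair (Mup4l4 and Mup4l1). By this measure the closest pair was Obp3 and Mup5, and the farthest Mup4l1 and Mup4l3. The order of the pairs may differ where gaps are counted. Within the stretches printed, identity over aligned bases ran from 92.1% to 97.9%, with up to 9 gap bases left out (Mup4l4 and Mup4l3). All 6 promoters held TATAAA, the box that places the start of transcription, against 14.2% of the 33469 rat promoters in the table. The box lies in a stretch that these near-identical copies share, so they are not 6 separate observations. TATAAA began 52 bases before the annotated start in Mup4l4, Mup4 and Mup5, 33 bases before it in Obp3 and Mup4l3, and 27 in Mup4l1. The run of A upstream of the box differed in length: the longest was 13 in Mup4l4, 11 in Mup5, 9 in Obp3, Mup4 and Mup4l1, and 7 in Mup4l3.

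The other motifs were searched on both strands of the same windows, and no 2 matches of different motifs overlapped. TGTTCT, a half-site of steroid hormone receptors such as the glucocorticoid receptor, was found in Obp3 alone, as AGAACA at positions -238 and -118 from the start; 20.7% of all promoters held it. TTCNNNGAA, the letters bound by STAT factors and its own reverse complement, was found in Mup4l1 alone, as TTCTTGGAA at position -214, against 8.87% of all promoters. CCAAT was found in Mup4l3 alone, at position -117, against 37.5%. Each match is a run of letters, not a measured binding site. Of the other RefSeq genes within 1 Mb, the promoters of LOC134478991 and LOC134478986 were the most like that of Mup5. Their identity over aligned bases was 98.1% and 93.3%. All others were at 63.4% or below, among them Mup18, a gene named for the family, at 56.8%. No probe of the set was matched to LOC134478991, LOC134478986 or Mup18.

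Signals are the scanner software's processed intensities, each with that software's own error estimate for the spot. Levels are log2 signals minus the array's 75th percentile, which was a signal of 186 for the parotid, 228 for the submandibular-labelled and 244 for the sublingual gland. Folds and log2 differences compare these levels, so they differ from the ratios of the printed signals. Where a probe was not well above background on the dimmer array, the fold is a lower bound, written "at least"; the lowest signals well above background were 17.2, 19.1 and 18.3 in the same order. Of the 14 probes, 13 were well above background in the parotid, 8 in the submandibular-labelled gland and 11 in the sublingual gland, beside 54.9%, 52.8% and 55.2% of all probes. No spot was saturated. The spot errors and the spread of repeat spots within an array (median SD of 0.09, 0.08 and 0.09 on the log2 scale over 178, 168 and 171 probes) cover neither animals nor labelling. How bright different probes are cannot be compared, so ratios are taken within a probe. Where signals are summed over a list, the sum follows its brightest probes.

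The label of the submandibular array was set against marker genes. Muc19, the gel-forming mucin of mucous cells, had a level of 9.80 there and 9.71 on the sublingual array, and Agr2, a disulfide isomerase of mucus-making cells, 8.71 and 8.89. Neither was well above background on the parotid array. Of the 6 probed products of the granular ducts, the androgen-dependent ducts of the submandibular gland, 5 were measured on the submandibular-labelled array, and none was shown to be 4-fold higher there than on the parotid or sublingual array. Smr3b, a salivary prohormone gene of this list, was well above background on that array alone, at -2.66, which allows only bounds of at least 1.62-fold over the parotid and at least 2.11-fold over the sublingual array. Egf, epidermal growth factor, lay at 2.62, 2.02 and 1.61 on the parotid, submandibular-labelled and sublingual arrays. Spt1, a salivary protein gene, told this array from the others: its level of -0.64 was 5.60-fold above the sublingual one and at least 6.92-fold above the parotid one. Because the markers do not settle the label, the array is called submandibular-labelled throughout. On the parotid array all 7 probed serous acinar genes were 4-fold or more above both others, among them Amy1, salivary amylase, at 10.76, 0.88 and 2.15.

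The family's signal was high on the parotid array and low on both others. Parotid level exceeded the submandibular-labelled level 10-fold or more, and thus also 4-fold or more, on all 13 probes that could be compared. It exceeded the sublingual level by as much on 13 of 13. Among all probes compared, 2.93% passed 4-fold and 0.877% passed 10-fold in the same direction for the submandibular-labelled array. Against the sublingual array these shares were 2.63% and 0.875%. The members' median difference was -6.24 (submandibular-labelled minus parotid, log2) and -5.33 (sublingual minus parotid), beside 0.00 and 0.02 for all probes. Of the 13 values in each median, 5 and 2 were bounds, so the members' medians may be larger in size. Where both arrays were well above background, the fold ran from 29.7 to 102 over 8 probes for the first comparison and from 19.7 to 88.5 over 11 probes for the second. On none of the 13 probes did the parotid signal overlap another array's within 2 spot errors. With another background correction (normexp, offset 50) the medians shrank to -4.42 and -4.08, and 13 of 13 probes still passed 4-fold in both comparisons, while 12 passed 10-fold; Mup4, at -3.10 and -3.21, did not. In whole tissue, more cells that make a transcript and more transcript per cell cannot be told apart.

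**Figure D1:**
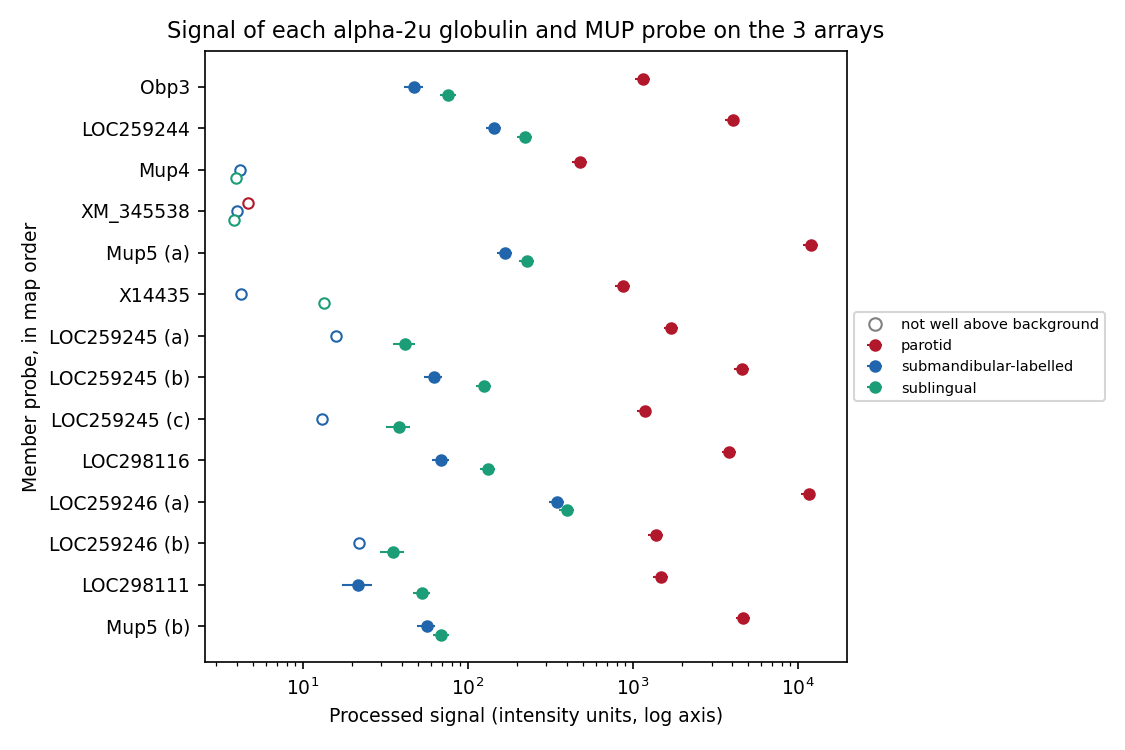
Processed signal of each of the 14 member probes (log axis) on the parotid, submandibular-labelled and sublingual array, 1 array each, with bars of 1 spot error and open points where the probe was not well above background. Letters a to c number the probes of 1 gene name in map order. On 13 probes the parotid point lies at 477 or above and every other point at 398 or below.

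Obp3, odorant-binding protein 3, an alpha-2u globulin also known from the nose (chr5:78090663-78090722), had a signal of 1150 ± 116 in the parotid, 47.5 ± 6.35 in the submandibular-labelled gland and 76.4 ± 8.65 in the sublingual gland. Its parotid level was 29.7-fold and 19.7-fold above the other levels. The log2 differences were -4.89 (interval of 2 spot errors -5.37 to -4.41) and -4.30 (-4.74 to -3.87), the smallest in size among the members measured on both arrays of each comparison. LOC259244, RefSeq's Mup4l4 (chr5:78164821-78165225), gave signals of 4020 ± 402, 144 ± 15.1 and 223 ± 22.7 in the same order. By level, it was 34.2-fold and 23.6-fold higher on the parotid array. The 2 members at the low-coordinate end thus had the smallest folds of those measured on both sides.

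Mup4, major urinary protein 4 (chr5:78217919-78217978), had a signal of 477 ± 47.8 on the parotid array, and on the others 4.16 and 3.93, neither well above background. Its parotid level was thus at least 30.6-fold above the submandibular-labelled one and at least 34.2-fold above the sublingual one. X14435, a probe designed on a genomic alpha-2u globulin sequence (chr5:78488544-78488603), was likewise measured on the parotid array alone, at 872 ± 87.3. Its signals of 4.21 and 13.4 elsewhere were not well above background, which gives at least 56.0-fold against the former array and at least 62.5-fold against the latter. LOC366379, described as similar to the family (chr5:78428980-78429039), was the 1 member not well above background on any array, at 4.67, 4.02 and 3.84, and it was not compared.

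The name Mup5, major urinary protein 5, was carried by 2 probes in separate places of the cluster. The one at chr5:78468225-78468284 had signals of 12000 ± 1200 in the parotid, 169 ± 17.5 in the submandibular-labelled gland and 229 ± 23.3 in the sublingual gland. By level, the parotid stood 87.0-fold and 68.7-fold above them. The probe for clone PGCL7 at chr5:78981079-78981138 had signals of 4670 ± 467, 56.3 ± 6.99 and 69.2 ± 7.94, and its parotid level was 102-fold and 88.5-fold higher. Its differences of -6.67 (interval -7.13 to -6.21) and -6.47 (-6.91 to -6.03) were the largest in size among members measured on both arrays. The intervals of the 2 Mup5 probes overlapped in both comparisons.

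LOC259245, named alpha-2u globulin PGCL5, had 3 probes placed 39 and 5 bases apart, so they share a target and are not separate measurements of the family. The middle one (chr5:78683939-78684227) had signals of 4580 ± 458, 62.2 ± 7.60 and 126 ± 13.3 on the parotid, submandibular-labelled and sublingual arrays. By level, it was 90.3-fold and 47.7-fold higher on the parotid. The probe before it (chr5:78683129-78683899) gave 1710 ± 171, 16.0 and 41.7 ± 6.24, and the probe after it (chr5:78684233-78684292) gave 1180 ± 118, 13.1 and 38.4 ± 6.19. On those 2 the submandibular-labelled signal was not well above background, which leaves at least 110-fold for the probe before and at least 75.7-fold for the probe after. Against the sublingual array they were 53.8-fold and 40.3-fold. The 3 probes thus spanned -5.75 to -5.33 for sublingual minus parotid, and their 2-error intervals overlapped.

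LOC259246, named alpha-2u globulin PGCL1, had 2 probes. The first (chr5:78707363-78707422) had signals of 11600 ± 1160, 347 ± 35.0 and 398 ± 40.0. By level, it was 41.0-fold and 38.2-fold higher on the parotid than on the submandibular-labelled and sublingual arrays. The second (chr5:78710210-78710269) had 1380 ± 139, 22.1 and 35.2 ± 5.68. It was at least 76.5-fold higher against a submandibular-labelled signal not well above background, and 51.4-fold higher against the sublingual one. The bound is here the ratio of the levels as read, with a spot error of 0.37 on the log2 scale. For submandibular-labelled minus parotid, its probes gave -5.36 (interval -5.77 to -4.95) and a bound of -6.26.

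LOC298116, the L type (RefSeq's Mup4l1), was probed only 6 bases from the first LOC259246 probe, at chr5:78707324-78707356. Its signals were 3840 ± 385, 69.2 ± 8.20 and 132 ± 13.9, and its parotid level was 68.0-fold and 38.2-fold higher. The interval of its difference for submandibular-labelled minus parotid, -6.54 to -5.64, overlapped that of its neighbour. LOC298111, RefSeq's Mup4l3 (chr5:78820573-78820632), had signals of 1480 ± 148, 21.8 ± 4.58 and 52.9 ± 6.52, and its parotid level was 83.2-fold and 36.7-fold higher. Whether a probe also binds the RNA of other copies was not tested, so a value belongs to a probe rather than to 1 gene.

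The sublingual and submandibular-labelled arrays differed little. None of 11 comparable members was 4-fold apart, beside 0.221% of the 23108 probes compared. In all 11 the sublingual level was the higher one, beside 51.3% of all probes, with a median difference of 0.59 against 0.01. These probes share targets and lie on 1 pair of arrays, so the count is not 11 independent observations. The order parotid, sublingual, submandibular-labelled held for each of the 11. Of the 8 measured on both arrays, 5 were apart by more than 2 spot errors: LOC298111 by 1.18 (interval 0.48 to 1.88), LOC259245's middle probe by 0.92 (0.45 to 1.39), LOC298116 by 0.83 (0.38 to 1.29), Obp3 by 0.59 (0.08 to 1.09) and LOC259244 by 0.53 (0.11 to 0.95). Both Mup5 probes, at 0.34 (-0.08 to 0.76) and 0.20 (-0.29 to 0.69), and the first LOC259246 probe, at 0.10 (-0.31 to 0.51), were not. With the normexp correction the largest of the 11 differences was 0.47, and 1 of the 8, LOC259245's middle probe, was apart by more than 2 spot errors. Those spot errors are of the processed signals and were not recomputed for normexp, so this count is not on the same footing as the 5 above. As folds, the sublingual level ran from 1.07 to 2.27 times the submandibular-labelled one.

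**Figure D2:**
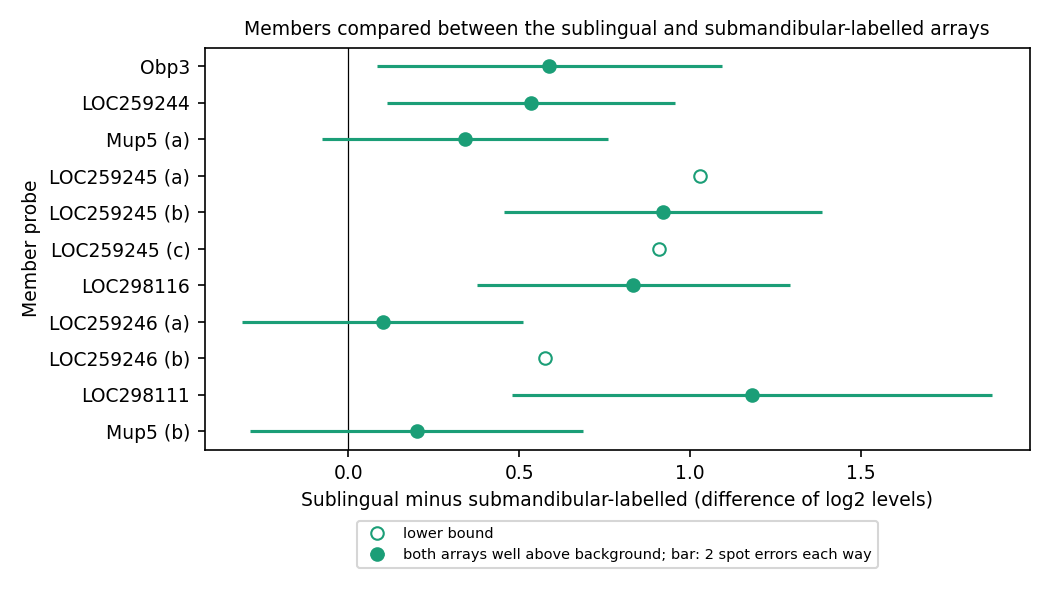
Sublingual minus submandibular-labelled difference of log2 levels for the 11 comparable member probes, with bars of 2 spot errors each way where both arrays were well above background and open points for the 3 lower bounds. All points lie above 0, from 0.10 to 1.18, and the bars of 3 probes cross 0.

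Probes of other genes placed the family's pattern on the chromosome. Between the first and last member lay 2 other probes, 1 for a predicted gene similar to a zinc finger gene and 1 unnamed, and neither was well above background on any array. Of 49 probes within 1 Mb outside the members, 35 could be compared for the submandibular-labelled and 36 for the sublingual array against the parotid. Their median differences were 0.36 and 0.44, and their ranges were -2.82 to 1.29 and -2.81 to 1.14. No neighbour's value as computed reached the members' -4.30. Some of these values are bounds that may be larger in size, and the probes not compared give no value. Slc31a2, a copper transporter gene (chr5:79290091-79290150), had signals of 3710, 645 and 692. Its parotid level stood 7.05-fold and 7.03-fold above the others. For the expressed sequence tag BF282856 beside it, the parotid level was at least 4.15-fold that of the submandibular-labelled gland.

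**Figure D3:**
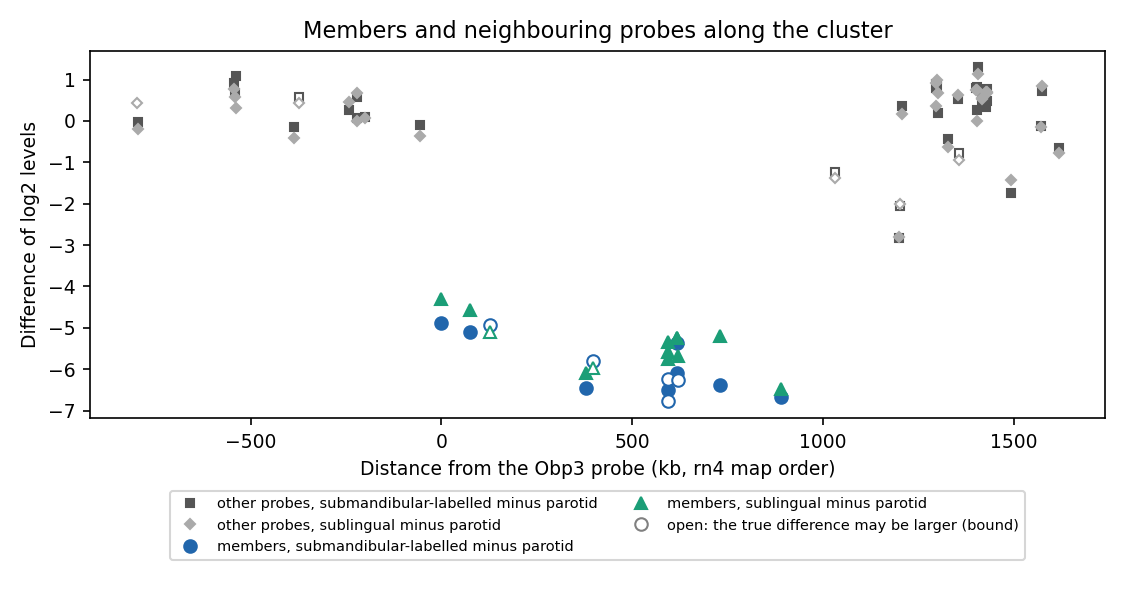
Difference of log2 levels from the parotid array for the members (colour) and for the other probes within 1 Mb of them (grey), against distance from the Obp3 probe in kb. Open symbols are lower bounds in size. The members lie between -6.78 and -4.30 and every neighbour at -2.82 or above.

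Other lipocalins were compared as a list. Of 24 listed genes 16 had a probe and 9 could be compared, and 4 of these passed 4-fold in the parotid's favour against each of the others, with 0 the other way. The list's medians were -1.35 and -1.50, beside 0.00 and 0.02 for all probes. Obp2b, an odorant-binding protein, had a parotid level at least 308-fold above the submandibular-labelled and at least 344-fold above the sublingual level. For Lcn1, tear lipocalin, these bounds were at least 153-fold and 171-fold, and for Vegp2, a von Ebner's gland protein, at least 139-fold and 155-fold. Lcn2, which binds bacterial siderophores, was measured on all arrays and was 21.5-fold and 34.1-fold higher. Obp2b, Lcn1 and Vegp2 were not well above background on either of the dimmer arrays, where 8 and 11 of the members were.

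Genes of the hormone inputs that control the family in the liver were mostly less than 4-fold apart, as were most probes of the arrays. Of 17 listed, all probed, 16 could be compared, and none was 4-fold apart between the parotid and submandibular-labelled arrays; the medians were -0.28 and -0.29. Against the sublingual array 1 of the list was 4-fold apart: Prlr, the prolactin receptor, with a parotid level of -1.38, at least 4.48-fold above the sublingual one. Igf1, the growth factor induced by growth hormone, lay at 5.24, 3.92 and 3.90 on the parotid, submandibular-labelled and sublingual arrays. Srd5a2, which makes dihydrotestosterone, lay at -0.46, -2.01 and -1.61, and Igf1r, the receptor of IGF1, at -2.41, -0.81 and -1.26. These are RNA levels and say nothing of hormone in the blood or of receptor activity.

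Androgen-responsive salivary genes did not share the members' pattern as a list. Of 17 probed, 12 could be compared between the submandibular-labelled and parotid arrays, of which 1 passed 4-fold upward and 2 downward, with a median of -0.46. For sublingual minus parotid, 11 could be compared, of which 0 passed upward and 1 downward, with a median of -0.78. Smr3a, a salivary prohormone gene, was the lowest in both, with a parotid level of 9.78 and a sublingual minus parotid difference of -12.36. Spt1, described above, went the other way. Klk9, a kallikrein, had a parotid level at least 4.84-fold that of the submandibular-labelled gland.

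Markers of other cells that make the family were read on the same arrays. Of 12 hepatocyte genes probed, 6 were not well above background on any array, among them Apoa1, Apoa2 and Ttr, which liver cells make in abundance. Alb, albumin, was well above background on the parotid array alone, at -2.65. Tf, transferrin, lay at 7.19, 5.21 and 4.42 on the parotid, submandibular-labelled and sublingual arrays, while Serpina1, a protease inhibitor, lay at 0.99, 4.11 and 3.74, in the opposite order. The summed signal of the 12 was 27729, 12533 and 8596. Tf and Serpina1 make up most of each sum, and 8, 7 and 8 of the 12 were not well above background. Of the lacrimal list, Pax6, an eye and lacrimal gland regulator, was well above background on the parotid array alone, at -2.45, while Scgb2a1 was not on any array; the part of Pax6 in the members' difference was not tested. Adipoq, the fat cell hormone, lay at -1.23, -3.25 and -2.65 and Jchain, of antibody-secreting cells, at 3.32, 1.13 and 1.54, and their part was not tested either.

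The serous acinar list had larger median differences than the members, though not on every gene. Its 7 probed genes had medians of -9.88 and -9.33 against the parotid array, beside the members' -6.24 and -5.33, which rest partly on bounds. The list's summed signal was 1458977, 39072 and 23303 on the parotid, submandibular-labelled and sublingual arrays. Prp2, a proline-rich salivary protein gene, Cst5, a cystatin, and Dnase1, a secreted nuclease, were at levels of 8.04, 9.74 and 10.71 on the parotid array and not well above background on the submandibular-labelled one. Bpifa2, a secretory protein of the BPI-fold family, differed by -2.80 and -3.75, less than any compared member. Most of the mucous list went the other way, with list medians of 8.43 and 8.28. Of 5 probed genes 4, Muc19, Agr2, Bpifb2 and Galnt5, stood 4-fold or more above the parotid on both other arrays. The remaining 1 was 4-fold or more higher on the parotid array in both comparisons. How much of the members' difference goes with the share of serous cells was not tested.

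The genes nearest in pattern to the first LOC259246 probe, which the rule for named genes takes as its reference, were found over 9377 named genes well above background on all 3 arrays, by the larger of their 2 gaps in the differences from the parotid. They were Blm, a DNA helicase (largest gap 0.28), Snrk, a kinase (0.31), Esrp2, a splicing regulator of epithelia (0.52), Gmeb2 (0.63) and Prpmp5, a proline-rich protein gene (0.66). Blm differed by -5.07 and -5.02 and Prpmp5 by -4.89 and -4.60, where the LOC259246 probe differed by -5.36 and -5.26. With 2 differences per gene, many unrelated genes can lie close.

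**Figure D4:**
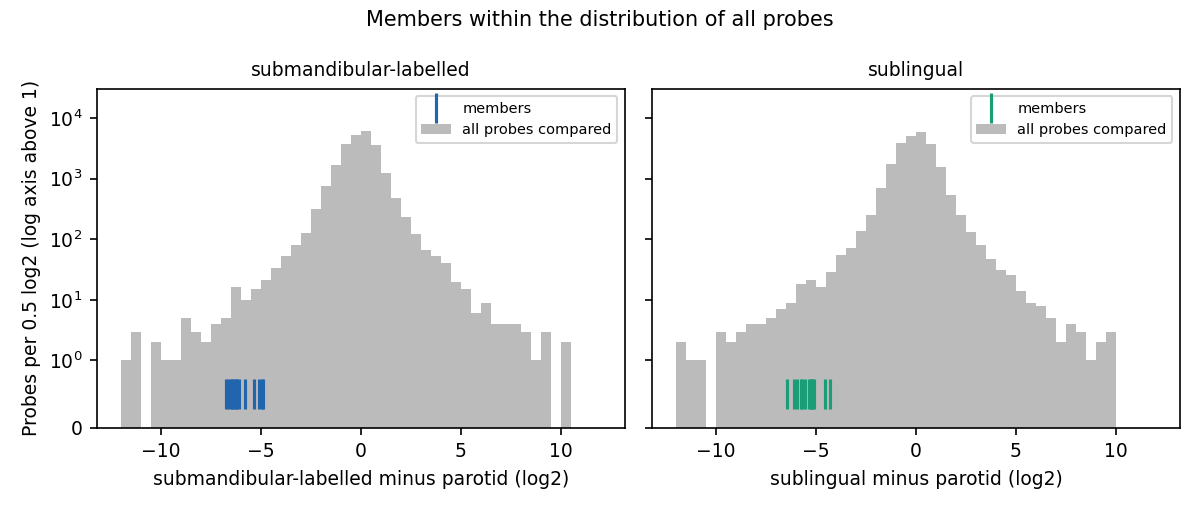
Number of probes (log axis above 1) per 0.5 log2 of the difference from the parotid array, for the submandibular-labelled array (23952 probes compared) and the sublingual array (24234), with coloured ticks for the 13 member probes. The ticks lie from -6.78 to -4.89 and from -6.47 to -4.30, while the medians of all probes are 0.00 and 0.02.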

How the data were processed

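Each of 3 rat salivary glands was measured on 1 array. The deposited intensity of every spot, with flags of 0 or 1, was written by Agilent's Feature Extraction software, version 10.1.1.1 (protocol GE1-v5_10_Apr08, coordinates in rn4), per the file headers. A value table that the authors deposited holds a linear ratio: dividing the processed signal by 190 (parotid), 236 (submandibular-labelled) or 250 (sublingual) gives it back to within 0.0142 on the log2 scale. Its making is not stated by the labels or headers.

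Controls and outlier-flagged spots (68, 79 and 73) were dropped, spots of 1 probe were averaged as log2 values, and each array's 75th percentile was subtracted. A probe is well above background where all its spots are so marked. A lower bound sets the bright level against the higher of the dim probe's own level and the lowest level well above background on that array (-3.43, -3.58 and -3.74). The 3 arrays shared a slide and a scan, so position on the slide and gland cannot be told apart. The members, lists and rules were chosen with earlier results of these data known. By the rule for named genes, every member probe, the 5 nearest genes by pattern, up to 4 members of a list by size of difference and neighbours at least 4-fold apart were named; markers not well above background are named besides, and 1 listed gene is not reported here. Promoters were aligned in pairs; RefSeq (GRCr8) gave names and promoter sequences only. Python 3.11.15, numpy 2.4.6, pandas 2.3.3, limma 3.58.1 (normexp, in R 4.3.3) and matplotlib 3.10.9 were used. The levels and the 4-fold call were tested on a copy of 1 array with known folds put into bright probes. The background flags and lower bounds were not part of that test. Alternatives were median centring, no scaling, quantile normalization, normexp, the deposited ratios, other filters and thresholds of 2-fold and 10-fold.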

Additional observations from a re-analysis of the deposited data

How the results depend on the processing

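The counts of member probes that passed 4-fold in the parotid's favour were 13 in both comparisons under median centring, no scaling, quantile normalization, normexp, the deposited ratios, no filter or bound, outlier spots kept, and thresholds of 2-fold and 10-fold. With only probes well above background on both arrays, fewer probes could be compared and the counts were 8 for the submandibular-labelled and 11 for the sublingual array. With the rule read letter by letter, an alternative chosen after seeing the data, both were 11. Between the sublingual and submandibular-labelled arrays the count was 0, and 2 at a threshold of 2-fold (LOC259245's first probe, a bound, and LOC298111). The sublingual level was the higher one on 11 of 11 probes under each scaling, background correction and the deposited ratios, on 12 of 14 with no filter, on 8 of 8 with only probes well above background on both arrays and on 9 of 9 with the rule read letter by letter; the smallest difference over the 11 was 0.03, for the first LOC259246 probe under median centring. Scaling shifts all probes: the median difference of all probes from the parotid rose from 0.00 and 0.02 to 0.30 and 0.40 without scaling and to 0.32 and 0.25 with median centring, and the members' medians became -5.95, -4.94, -5.93 and -5.09. Precision is limited by the number of arrays, and signals near 20 limit what can be measured on the dim arrays. No paired analysis was possible because the labels carry no replicate numbers and each gland has 1 array.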
